A study of Homo sapiens with 8 samples.

Results

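The 10 genes described here, CDH1, EPCAM, ESRP1, GRHL2, CD44, VIM, CDH2, ZEB1, ZEB2 and SNAI2, mark or set epithelial and mesenchymal identity. They were taken by symbol from the 58828 genes of the count tables, and all 10 were found. RNA-seq was performed on 22RV1 and DU145, established lines of human prostate cancer cells. The cells of either line carried an empty lentiviral vector or PAGE4, a cancer/testis antigen of the prostate, and were treated with PBS or 200 mM H2O2 for 12 h. The construct was a doxycycline-inducible, HA-tagged PAGE4 reading frame, and doxycycline was given to vector and PAGE4 cells alike. Transduced cells were selected with puromycin, so all 4 of the stable lines, controls included, carry a lentiviral insertion and were grown as selected pools. Each of the 8 conditions had 1 library. All p-values therefore rest on the spread left once a PAGE4 effect and an H2O2 effect were fitted for each line. Within a line, that spread is how far its 2 pairs of libraries disagree. The fit draws it toward the spread of all genes, which carries most of the weight in the p-values and SEs. The 2 libraries of 1 stable line also share their source of cells.

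Epithelial cells hold to each other through E-cadherin, the product of CDH1, and through tight junctions and desmosomes. GRHL2 is a transcription factor that maintains epithelial genes, ESRP1 sets the epithelial pattern of RNA splicing (the CD44 transcript is one of its targets), and EPCAM is an epithelial surface adhesion protein. In epithelial-mesenchymal transition, the repressors ZEB1, ZEB2 and SNAI2 (Slug) bind E-box motifs in epithelial promoters, and cells gain vimentin (VIM) and N-cadherin (CDH2). CD44, a hyaluronan receptor, is made by both kinds of cell in different splice forms, which counts per gene cannot tell apart.

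Total counts ranged from 25482984 to 43310401 per library. PAGE4 itself had 0 or 1 count in each of the vector libraries and 1001 to 1489 counts in the PAGE4 libraries. Luminal prostate markers such as KLK3 summed to between 1114 and 2766 CPM (counts scaled to library size, with TMM factors) in 22RV1 libraries and to between 121 and 170 CPM in DU145 libraries, where 8 of the 12 were under 1 CPM. Markers of blood, endothelial and stromal cells summed to at most 7.85 CPM in any library. Of the 3 such markers tested, 1 was lower with PAGE4 in 22RV1 and 2 were not called. The stromal marker LUM had 141 and 60 counts in the vector libraries of 22RV1 (PBS, then H2O2) and 34 and 15 counts in its PAGE4 libraries. Of the marker genes for DU145, AXL, UCHL1 and GSTP1 were at no more than 0.381% of their DU145 mean in each 22RV1 library, while others on the list of 15 were not near 0 there. LGALS1 was at 95.7% to 188%, MET at 15.7% to 58.8% and S100A2 at 1.33% to 15.5% of the DU145 mean, and KRT5 had no more than 3 counts in any library of either line. The 15 genes summed to 4931 and 2198 CPM in the vector libraries of 22RV1, to 516 and 481 CPM in its PAGE4 libraries, and to between 4519 and 6216 CPM in DU145. Most of the vector sums in 22RV1 was FLNA alone, at 4593 and 1930 CPM, against 286 and 264.5 CPM in the PAGE4 libraries. The sums therefore do not describe the list as a whole. FLNA and EGFR, also on that list, were higher in the vector libraries of 22RV1 than in its PAGE4 libraries, and their values are given below beside the members that moved the same way.

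The genes lie, in GENCODE release 44 on GRCh38, on chromosomes 16 (CDH1, 68737292 to 68835537, plus strand), 18 (CDH2, 27932879 to 28177946, minus strand) and 11 (CD44, 35138882 to 35232402, plus strand). EPCAM (47345158 to 47387601, plus strand) and ZEB2 (144364364 to 144521057, minus strand) are on chromosome 2. VIM (17228241 to 17237593) and ZEB1 (31318495 to 31529814) are both on the plus strand of chromosome 10. SNAI2 (48917598 to 48921740, minus strand), ESRP1 (94641074 to 94707466, plus strand) and GRHL2 (101492439 to 101669726, plus strand) are on chromosome 8. All 10 are protein-coding genes.

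The first question was how the identity genes differ between the lines. CDH1, ESRP1 and GRHL2 were higher in 22RV1, and VIM, ZEB1 and ZEB2 were higher in DU145. EPCAM and CDH2 went against that division: EPCAM was higher in DU145 and CDH2 was found almost only in 22RV1. CDH2, ZEB1 and ZEB2 passed the filter on low counts only through the line in which they were high, so their difference was fixed by the filter. ZEB1 had 12 and 13 counts in the PBS libraries of 22RV1, under the limit scaled to depth. The other genes passed edgeR's quasi-likelihood test at an adjusted p under 0.05. CDH1, ESRP1, GRHL2, SNAI2 and CD44 were higher and EPCAM and VIM lower in 22RV1. These calls are read against a background of 76.7% of the 19784 genes tested, 40.4% higher and 36.3% lower in 22RV1. The number of members called is therefore no result by itself.

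**Figure D1:**
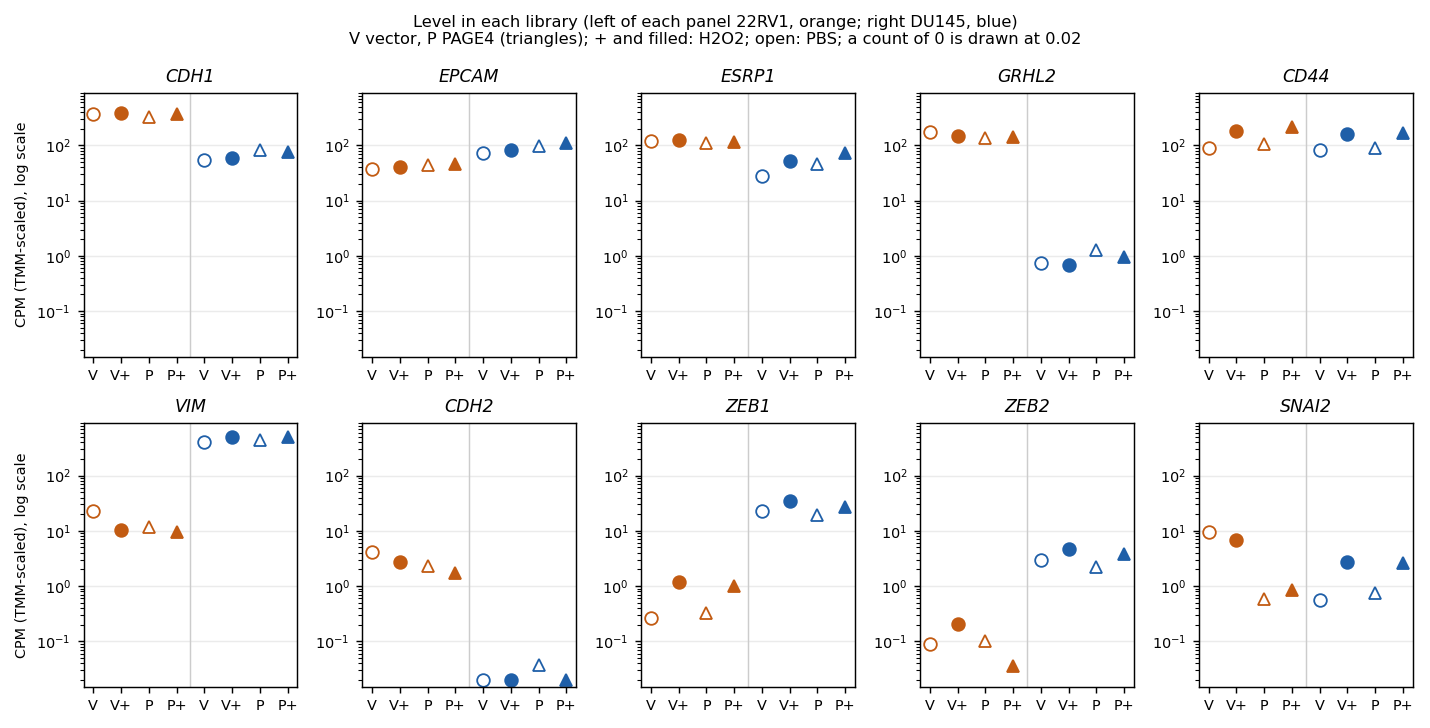
Level of each gene in CPM (TMM-scaled, log axis) in the 8 libraries, with 1 point per library and 4 libraries of each line. GRHL2, ZEB1, ZEB2, VIM and CDH2 separate the lines widely, CD44 is higher in each H2O2 library than in each PBS library, and SNAI2 is high in the vector libraries of 22RV1.

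Among the epithelial genes, CDH1 measured 374 and 392 CPM in the vector libraries of 22RV1 (PBS, then H2O2) and 332 and 369 CPM in the PAGE4 libraries, against 54.4, 60.1, 83.5 and 75.4 CPM in DU145 in the same order. The lines did not overlap, and the log2 difference was 2.44 ± 0.06 (SE). GRHL2 measured 173, 145, 136 and 141 CPM in 22RV1, against 0.731, 0.683, 1.29 and 0.957 CPM in DU145, which rest on 20, 17, 35 and 24 counts. It was 167-fold higher in 22RV1, with a log2 difference of 7.38 ± 0.11.

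ESRP1 measured 119, 125, 112 and 116 CPM in 22RV1, and 28.0, 52.1, 45.1 and 73.9 CPM in DU145. The DU145 values were spread more widely than those of 22RV1 and stayed below them, with a log2 difference of 1.33 ± 0.06. EPCAM ran the other way, at 37.2, 40.2, 44.1 and 46.5 CPM in 22RV1 and 72.5, 81.7, 98.9 and 113 CPM in DU145. Its lowest DU145 library was above its highest 22RV1 library, and the log2 difference was -1.11 ± 0.06.

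Of the mesenchymal genes, VIM, which encodes an intermediate filament protein, measured 22.6, 10.2, 11.7 and 9.45 CPM in 22RV1 and 413, 495, 437 and 499 CPM in DU145. The log2 difference was -5.18 ± 0.09, or 36.3-fold lower in 22RV1. ZEB1 was at 0.269, 1.17, 0.324 and 0.991 CPM in 22RV1 (12, 45, 13 and 28 counts) and at 22.7, 34.2, 19.0 and 27.0 CPM in DU145, and was 44.1-fold lower in 22RV1. As told above, the filter fixed that difference. ZEB2 had 4, 8, 4 and 1 counts in 22RV1 and 82, 119, 61 and 97 counts in DU145, where it reached 2.26 to 4.78 CPM.

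CDH2 was the exception among the mesenchymal genes, with 182, 103, 91 and 48 counts in 22RV1 (4.08, 2.67, 2.26 and 1.70 CPM). In DU145 it had 1 count in the PAGE4 library with PBS and 0 counts in the other three, and 3 counts in a library would be 0.11 to 0.121 CPM there. No fold is given for CDH2, because a fitted fold against 1 count depends on the prior count. The 8 genes other than CDH2 and ZEB2 had at least 10 counts in every library.

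The TWIST factors, which also drive mesenchymal programmes, were split between the lines in the same complete way. TWIST1 measured 9.30 to 12.3 CPM in 22RV1 and had 0 counts in the 4 DU145 libraries. TWIST2 measured 9.60 to 13.9 CPM in DU145 and had 0 counts in the 4 libraries of 22RV1. Counts of 0 allow levels of up to 0.121 CPM in DU145 and 0.106 CPM in 22RV1, at 3 counts per library.

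Per kilobase of exon, which allows levels to be compared between genes, CDH1 led in 22RV1 with a mean of 60.3 CPM per kb (54.6 to 64.5 over the 4 libraries). GRHL2 at 24.6 and ESRP1 at 24.2 came next, with ranges that overlapped, then EPCAM at 17.3 and CD44 at 14.7 CPM per kb, which also overlapped each other. VIM at 2.61, SNAI2 at 1.34 and CDH2 at 0.312 CPM per kb overlapped from neighbour to neighbour, and ZEB1 at 0.0795 and ZEB2 at 0.00413 were each below all libraries of the gene above. In DU145, VIM led with 89.1 CPM per kb (79.9 to 96.5), above EPCAM at 37.6 (29.8 to 46.4). CD44 at 12.6, CDH1 at 11.3 and ESRP1 at 10.2 CPM per kb overlapped each other, ZEB1 stood at 2.98, and SNAI2 at 0.501, GRHL2 at 0.151 and ZEB2 at 0.133, again overlapping from neighbour to neighbour, stood above CDH2 at 0.00108. DU145 thus held VIM above every epithelial member and still kept EPCAM, CDH1 and ESRP1 transcripts above ZEB1. The length used is the union of all annotated exons, 26151 bases for ZEB2 and 6053 for GRHL2, so the place of ZEB2 depends on that choice. In mean CPM in DU145, ZEB2 at 3.48 was above GRHL2 at 0.916.

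A wider list of 42 epithelial genes divided in the same unequal manner. In 22RV1, 27 were higher, 12 were lower and 3 were not called, with a median log2 difference of 0.71, beside 0.07 over all genes tested. Of all genes tested, 40.4% were higher and 36.3% lower in 22RV1. EHF and OVOL1, epithelial transcription factors, were higher in 22RV1 by 6.02 ± 0.14 and 3.81 ± 0.26 on the log2 scale. CLDN1, which encodes a tight junction claudin, was lower, at -4.65 ± 0.10. Of 40 mesenchymal genes, 33 passed the filter, 9 were higher and 23 lower in 22RV1, and the median was -2.44. AXL, a receptor kinase, was at 253 to 433 CPM in DU145 and at 0.124 to 0.318 CPM in 22RV1. PLAU, which encodes urokinase, was at 55.9 to 139 CPM in DU145 and at no more than 0.142 CPM in 22RV1. As with CDH2, ZEB1 and ZEB2, some listed genes passed the filter only through the line in which they were high. Their difference was fixed by the filter, and the counts and medians above include them. They also enter the counts and medians given below within each line, where in their low line a change could hardly be called. Among them were TWIST1, TWIST2, AXL (5 to 12 counts in 22RV1) and PLAU (1 to 4). EHF and OVOL1 likewise had as few as 3 and 5 counts in a DU145 library.

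The E-box that ZEB and SNAI factors read is CACCTG, or CAGGTG on the other strand, and it was searched for in the 250 bases before RefSeq start sites on GRCh38.p14. Of the 10 members, the promoter table held CD44, CDH2, VIM, ZEB1 and ZEB2, with 12 windows in all. Only ZEB1 had the motif, in 2 of its 7 windows. The motif was present in at least 1 window of 16 of 23 epithelial-list genes with an entry (69.6%), of 4 of 24 mesenchymal-list genes (16.7%) and of 5635 of all 27305 genes (20.6%). These are descriptions of letters and not of binding. The window before VIM is shown because it is the promoter of the leading mesenchymal gene and holds no E-box. It covers chr10:17227991-17228240, plus strand, ends at the base before the start site, and overlaps no annotated exon.
VIM: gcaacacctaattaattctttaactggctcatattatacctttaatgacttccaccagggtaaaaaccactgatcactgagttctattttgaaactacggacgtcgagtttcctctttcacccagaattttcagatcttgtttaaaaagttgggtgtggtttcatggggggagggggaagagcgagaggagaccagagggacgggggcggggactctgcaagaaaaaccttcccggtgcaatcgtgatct

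The sites of ZEB1 and of CLDN7 are shown with up to 10 bases on each side and the E-box in capitals, ZEB1 because it is a reader of the motif that has it before its own start sites, and CLDN7 because this claudin gene had 4 E-boxes before 1 of its 2 start sites and is among the genes that rose with PAGE4 below. Only 0.122% of all 35116 windows held 4 or more. CRB3, on the same epithelial list, had 5 in its only window and is not printed. The ZEB1 sites lie on the plus strand at chr10:31318350-31318375, chr10:31318966-31318989 and chr10:31319121-31319146, and begin 57, 242 and 85 bases before the start site of their window. The region around them also holds exons of other ZEB1 transcripts and of ZEB1-AS1. The CLDN7 sites lie on the minus strand at chr17:7262637-7262662, chr17:7262598-7262623, chr17:7262483-7262508 and chr17:7262472-7262497, and begin 174, 135, 20 and 9 bases before the start site, inside the span of a longer annotated CLDN7 exon.
ZEB1 site a: gaggtgacagCAGGTGagggccgggt
ZEB1 site b: ccccaccaCACCTGaggaaaactt
ZEB1 site c: tgtcgtaaacCAGGTGcggtggggag
CLDN7 site a: tcttcctcctCACCTGggcaaggagg
CLDN7 site b: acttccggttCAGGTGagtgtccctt
CLDN7 site c: tacatatactCAGGTGcgccccacct
CLDN7 site d: aggtgcgcccCACCTGtccgcccgca

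The second question was what differed between PAGE4 and vector cells. Each construct in each line was 1 selected pool, and both pairs of a line compare the same 2 pools. An effect of PAGE4 therefore cannot be told apart from a difference between pools, here and wherever a PAGE4 effect is given. In 22RV1 cells, SNAI2 fell by 3.52 ± 0.33 on the log2 scale, 11.5-fold, and VIM fell 1.5-fold, while none of the epithelial members passed the test. The 2 members called were both lower, against 5.2% of all genes called, 2.51% higher and 2.69% lower.

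SNAI2 measured 9.39 and 6.77 CPM in the vector libraries of 22RV1 (419 and 261 counts) and 0.572 and 0.849 CPM in the PAGE4 libraries (23 and 24 counts). The groups did not overlap, and the single pairs gave -4.04 with PBS (95% interval -4.71 to -3.43, counting error only) and -3.00 with H2O2 (-3.66 to -2.39). The adjusted p was 7.95e-07. In DU145, SNAI2 was at 0.548 and 2.69 CPM in vector cells and at 0.740 and 2.59 CPM in PAGE4 cells, a log2 change of 0.11 ± 0.36 with adjusted p = 0.992. The PAGE4 effect on SNAI2 differed between the lines by -3.63 ± 0.49 (adjusted p = 0.000173).

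SNAI2 was thus 412% to 572% of its DU145 mean in the vector libraries of 22RV1 and 34.8% to 51.7% in the PAGE4 libraries. The line difference of SNAI2 given by the fit (0.86 ± 0.25, adjusted p = 0.00473) is a mean over these unlike constructs. It was lost without the 22RV1 vector library with PBS and in an additive design, with adjusted p = 0.362 as the highest over 13 alternatives. FLNA, which encodes filamin A, went with SNAI2 at 302%, 127%, 18.8% and 17.4% of its DU145 mean (vector PBS, vector H2O2, PAGE4 PBS, PAGE4 H2O2). EGFR stood at 57.5%, 35.6%, 13.1% and 11.8%. The collagen gene COL6A2 was at 8.20 and 8.72 CPM in the vector libraries and at 0.274 and 0.566 CPM in the PAGE4 libraries. LUM was at 3.16 and 1.56 CPM in the vector libraries and at 0.846 and 0.531 CPM in the PAGE4 libraries. The DU145 markers did not follow as a whole, since 3 of the 14 tested were lower and 2 higher with PAGE4 in 22RV1. AXL was at most 0.0998% of its DU145 mean in any 22RV1 library, and CAV1 was at 1.53% and 2.84% in vector cells and at 1.92% and 3.32% in PAGE4 cells. The part of FLNA, EGFR, COL6A2 and LUM in the SNAI2 result was not tested. In bulk RNA, fewer cells with a transcript cannot be told apart from less of it per cell.

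**Figure D2:**
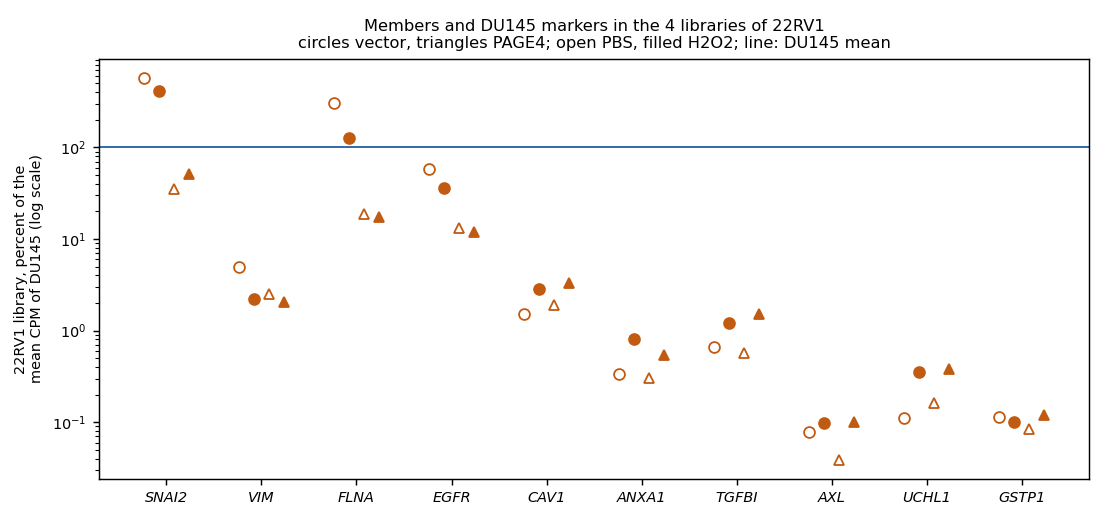
Levels of SNAI2, VIM and 8 DU145 marker genes in the 4 libraries of 22RV1, as a percentage of the mean CPM of the DU145 libraries (log axis, 1 point per library). SNAI2, FLNA and EGFR are higher in both vector libraries, whereas AXL, UCHL1 and GSTP1 lie at or under 0.381% in every library.

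VIM in 22RV1 measured 22.6 CPM in vector cells with PBS, and the other three libraries lay between 9.45 and 11.7 CPM. With PBS the pair differed by -0.95 (-1.11 to -0.79), and with H2O2 by -0.11 (-0.34 to 0.11). The fitted change of -0.59 ± 0.13 (adjusted p = 0.0109) was lost with DESeq2's Wald test, without vector PBS and without PAGE4 PBS, where it was as small as -0.11, so 1 pair decided it. The antisense gene VIM-AS1 had 83 and 73 counts with PBS and 18 and 19 counts with H2O2, with vector listed first, and whether the counting used strand is not given in the sources used here.

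Other members of 22RV1 cells did not pass the test for PAGE4. CD44 was higher in both pairs, by 0.24 and 0.25, with a fitted change of 0.25 ± 0.08 and adjusted p = 0.0856. EPCAM was higher in both pairs, by 0.25 and 0.21 (adjusted p = 0.188), and CDH2 was lower in both, by -0.85 and -0.65 (adjusted p = 0.285). CDH1 was at -0.13 ± 0.08 and ESRP1 at -0.10 ± 0.09.

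In DU145 cells PAGE4 went with higher levels of 3 epithelial members: ESRP1 rose 1.51-fold, CDH1 1.39-fold and EPCAM 1.37-fold. Of all genes 0.323% were called in this comparison, 0.227% higher and 0.096% lower, and the members called were 3 of 10. No mesenchymal member passed the test.

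ESRP1 went from 28.0 to 45.1 CPM with PBS and from 52.1 to 73.9 CPM with H2O2. The groups overlapped, since vector cells with H2O2 were above PAGE4 cells with PBS, but PAGE4 was higher within each treatment, and the fitted log2 change was 0.59 ± 0.09 (adjusted p = 0.00382). CDH1 went from 54.4 to 83.5 CPM and from 60.1 to 75.4 CPM, so that both PAGE4 libraries exceeded both vector libraries, with a change of 0.47 ± 0.09 (adjusted p = 0.0185). EPCAM went from 72.5 to 98.9 CPM and from 81.7 to 113 CPM, also without overlap, with a change of 0.46 ± 0.09 (adjusted p = 0.0315).

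These calls depended on single libraries. Without the PBS library of vector DU145 cells, or without that of PAGE4 DU145 cells, 0 of the 3 passed, while 11 and 10 genes of all were called, and EPCAM was also lost without either H2O2 library of DU145. The direction was kept, with log2 changes of 0.50 to 0.69 for ESRP1, 0.33 to 0.62 for CDH1 and 0.45 to 0.47 for EPCAM over 13 alternatives. GRHL2 had 20 and 17 counts in vector cells and 35 and 24 in PAGE4 cells, a log2 change of 0.67 ± 0.29 (adjusted p = 0.542). ZEB1 was lower in both pairs, by -0.25 (-0.43 to -0.08) and -0.34 (-0.49 to -0.19), but the fitted change of -0.30 ± 0.15 had adjusted p = 0.652. VIM, at 0.05 ± 0.11, and CD44, at 0.11 ± 0.08, were not called.

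The PAGE4 effect differed between the lines for 3 of the 10 genes, where 2.49% of all genes were called. Beside SNAI2, these were ESRP1 (-0.70 ± 0.13, 22RV1 minus DU145, adjusted p = 0.00354) and CDH1 (-0.60 ± 0.12, adjusted p = 0.00688). VIM, at -0.63 ± 0.17, had adjusted p = 0.0538, and EPCAM, at -0.23 ± 0.13, had adjusted p = 0.456, so a difference between the lines was not shown for EPCAM. In a fit with 5 coefficients, where the lines share 1 H2O2 effect, 0 of the 3 passed and 5 genes of all were called. Without the PBS library of either DU145 construct, where all spread comes from 22RV1, only SNAI2 remained.

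**Figure D3:**
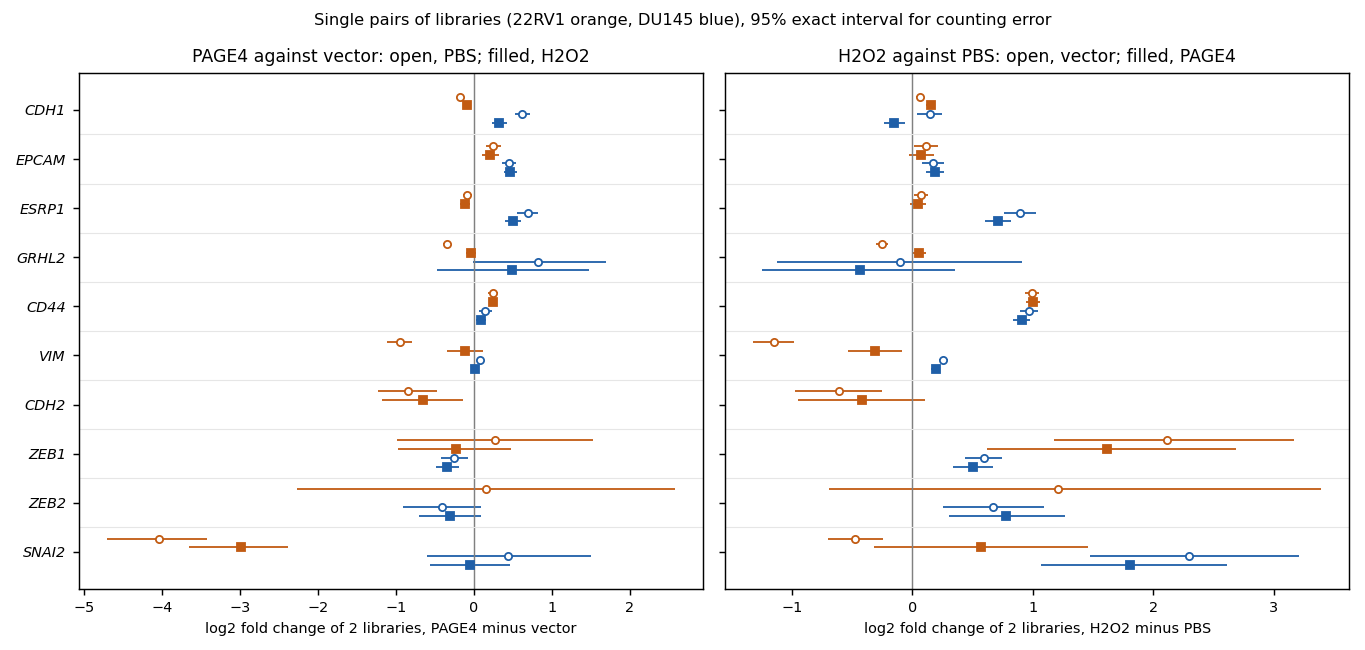
Log2 fold change of each gene in single pairs of libraries, PAGE4 minus vector (left) and H2O2 minus PBS (right), with 95% exact intervals that cover counting error only; pairs with under 3 counts in a library are left out. SNAI2 is shifted to about -3 to -4 in both 22RV1 pairs with PAGE4, and CD44 lies near 1 with H2O2 in the 4 pairs.

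In the wider lists, PAGE4 in DU145 cells went with 7 of 42 epithelial genes higher and 0 lower, with a median of 0.23, beside -0.002 over all genes tested. Among these were the keratin gene KRT19 (0.80 ± 0.08) and CLDN7 (0.63 ± 0.08). KRT19 went from 159 to 291 CPM with PBS and from 124 to 207 CPM with H2O2. CLDN7, whose 4 E-boxes are printed above, went from 58.1 to 90.0 CPM and from 69.7 to 108 CPM. A part of the E-boxes in these changes was not tested. Of the 33 mesenchymal genes tested 2 were higher and 0 lower, namely LGALS1 (galectin-1, 0.77 ± 0.09) and PLAU (0.57 ± 0.11). The counts of both lists are read against 0.227% of all genes higher and 0.096% lower in this comparison. As told for the members, far fewer genes were called in it without either PBS library of DU145.

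In 22RV1 cells the same lists were divided with PAGE4. One epithelial gene, the receptor gene ERBB3 (0.41 ± 0.08), rose and 3 fell, namely EVPL (-0.35 ± 0.10) and DSG2 (-0.30 ± 0.08) of the cornified envelope and desmosome, and the keratin gene KRT8 (-0.28 ± 0.07). Among mesenchymal genes 4 rose and 4 fell. The counts of both lists are read against 2.51% of all genes higher and 2.69% lower in this comparison. COL6A2 fell by 4.39 ± 0.21, and PRRX1, a mesenchymal transcription factor, rose by 1.30 ± 0.36. NT5E, the ectonucleotidase CD73, rose by 0.71 ± 0.19. SNAI1 (Snail), the close relative of SNAI2, had 16 and 16 counts with PBS and 198 and 32 counts with H2O2 in vector and PAGE4 cells. Its fitted change of -1.5 ± 0.38 (adjusted p = 0.0234) rested on the H2O2 pair and was 0.16 and 0.17 without one or the other of its libraries.

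**Figure D4:**
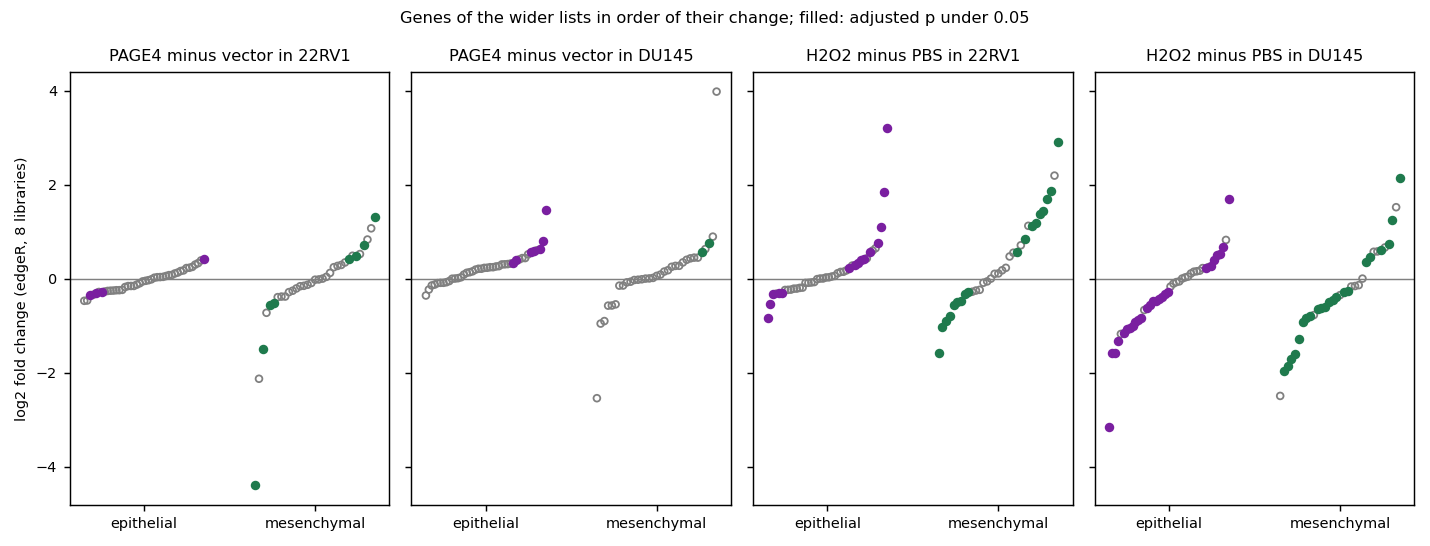
Log2 fold changes (edgeR, 8 libraries) of the epithelial and mesenchymal lists in order of size, with PAGE4 and with H2O2 in each line; filled points have an adjusted p under 0.05. With PAGE4 in DU145 all filled points are above 0, while with H2O2 both lists have filled points on both sides of 0.

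The third question was the response to H2O2. CD44 rose 2.00-fold in 22RV1 and 1.91-fold in DU145. ZEB1 also rose in both lines, VIM fell in 22RV1, and SNAI2 and ESRP1 rose in DU145. In 22RV1 3 of 10 members were called (2 higher, 1 lower), against 32.1% of all genes, 15.2% higher and 16.9% lower. In DU145 4 of 10 were called, all higher, against 41.9% of all genes, 19.2% higher and 22.8% lower, so the shares called are near the background in both lines. With DU145 fitted alone, 7 were called, EPCAM, VIM and ZEB2 in addition, where 56.7% of all genes were called.

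Markers of both lines moved with H2O2 in 22RV1 as well. All 11 luminal prostate markers tested fell there, with a median log2 change of -1.43, and KLK3 went from 22.9 to 3.68 CPM in vector cells and from 23.97 to 6.93 CPM in PAGE4 cells. Of the 14 DU145 markers tested, 8 rose and 4 fell, with a median of 0.97, and S100A2 went from 9 to 90 and from 9 to 30 counts. In DU145, 1 luminal marker rose and 2 fell, and 4 of the DU145 markers rose and 7 fell. The part of these markers in the H2O2 changes of the members was not tested.

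CD44 measured 90.0 and 107 CPM with PBS in 22RV1 (vector, PAGE4) and 179 and 213 CPM with H2O2, and 82.1 and 90.7 CPM with PBS in DU145 and 160 and 170 CPM with H2O2. Every H2O2 library was above every PBS library, across both lines. The 4 pairs gave log2 changes of 0.99 (0.94 to 1.05), 1.00 (0.94 to 1.06), 0.97 (0.89 to 1.04) and 0.91 (0.84 to 0.98). The fitted changes were 1.00 ± 0.08 in 22RV1 (adjusted p = 1.33e-08) and 0.94 ± 0.08 in DU145 (adjusted p = 2.35e-08), both kept under 13 of 13 alternatives. Their difference was 0.06 ± 0.11 (adjusted p = 0.777). Between the lines, CD44 differed by only 0.21 ± 0.06 (adjusted p = 0.00213).

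ZEB1 in 22RV1 went from 12 to 45 counts in vector cells and from 13 to 28 counts in PAGE4 cells, a log2 change of 1.87 ± 0.32 (adjusted p = 0.000163) at levels that remained at or below 1.17 CPM. In DU145 it went from 22.7 to 34.2 CPM and from 19.0 to 27.0 CPM, with a change of 0.55 ± 0.15 (adjusted p = 0.00683). The DU145 call was lost without any 1 of the 4 DU145 libraries, where all spread comes from 22RV1. The changes were 0.50 to 0.61 over the alternatives. ZEB1-AS1, the antisense neighbour, had 270 and 225 counts in vector and 280 and 136 counts in PAGE4 cells of 22RV1 (PBS, then H2O2), and so did not rise with ZEB1 there. ZEB2 in DU145 went from 82 to 119 and from 61 to 97 counts, with a fitted change of 0.72 ± 0.37 and adjusted p = 0.123.

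SNAI2 in DU145 went from 15 to 67 counts in vector cells and from 20 to 65 counts in PAGE4 cells. The H2O2 and PBS libraries did not overlap, and the change of 2.03 ± 0.37, 4.10-fold, had adjusted p = 0.000154. In 22RV1 the pairs pointed in opposite directions, at -0.47 (-0.70 to -0.24) in vector cells and 0.57 (-0.32 to 1.46) in PAGE4 cells, with a fitted change of -0.15 ± 0.32. The H2O2 effect on SNAI2 differed between the lines by -2.18 ± 0.49 (adjusted p = 0.00331), which was lost without either vector library of 22RV1.

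ESRP1 in DU145 went from 28.0 to 52.1 CPM in vector cells and from 45.1 to 73.9 CPM in PAGE4 cells, a change of 0.80 ± 0.09 (adjusted p = 8.86e-07). In 22RV1 its 4 libraries lay within 112 to 125 CPM and the change was 0.06 ± 0.09. The lines differed in this effect by -0.74 ± 0.13 (adjusted p = 0.000316). The PAGE4 and H2O2 changes of ESRP1 in DU145 therefore ran in the same direction, and its highest DU145 level, with both, was 73.9 CPM, still below the lowest 22RV1 level.

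VIM in 22RV1 went from 22.6 to 10.2 CPM in vector cells and from 11.7 to 9.45 CPM in PAGE4 cells, which gave -1.15 (-1.32 to -0.98) and -0.31 (-0.53 to -0.09). The fitted change of -0.77 ± 0.13 (adjusted p = 0.000164) was lost without either vector library, where it was as small as -0.31. In DU145 the pairs gave 0.26 and 0.19, with a fitted change of 0.23 ± 0.11 and adjusted p = 0.0988. The lines differed in the H2O2 effect on VIM by -0.99 ± 0.17 (adjusted p = 0.000324). FLNA was also lower with H2O2 in the vector cells of 22RV1, at 127% against 302% of its DU145 mean, and its part in the VIM result was not tested.

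CDH1, EPCAM and GRHL2 were not called for H2O2 in either line. For CDH1 the changes were 0.11 ± 0.08 in 22RV1 and 0.00 ± 0.09 in DU145, and for EPCAM they were 0.10 ± 0.09 and 0.18 ± 0.09. GRHL2 was at -0.10 ± 0.09 in 22RV1, and in DU145, at 17 to 35 counts, a change of -0.30 ± 0.29 was not distinguishable from 0. In all, the H2O2 effect differed between the lines for 4 of 10 members, SNAI2, ESRP1, VIM and ZEB1 (1.32 ± 0.36, adjusted p = 0.0137), against 19.5% of all genes. In a fit with 5 coefficients in which the lines instead share 1 PAGE4 effect, VIM and ZEB1 were called and SNAI2 and ESRP1 were not. The VIM difference had adjusted p = 0.063 with DESeq2's Wald test, and the ZEB1 difference was lost without either vector library of 22RV1 or either PAGE4 library of DU145, with adjusted p up to 0.179.

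The wider lists moved in both directions with H2O2. In 22RV1, 10 epithelial genes rose and 5 fell, led by the transcription factor genes GRHL3 (3.21 ± 0.39) and ELF3 (1.84 ± 0.11) and the desmocollin gene DSC2 (1.10 ± 0.12), while KRT19 fell by 0.84 ± 0.08. Of the 33 mesenchymal genes tested 9 rose and 9 fell. These counts are read against the 15.2% of all genes higher and 16.9% lower in this comparison, and both lists had median changes near 0, at 0.03 and 0.11. SNAI1 rose by 2.92 ± 0.39, the actin-bundling gene FSCN1 by 1.86 ± 0.14 and the TGF-beta receptor gene TGFBR2 by 1.69 ± 0.14, and LOX, a collagen cross-linking enzyme, fell by 1.59 ± 0.28. Without the vector H2O2 library of 22RV1 the SNAI1 value was 1.49, and without the vector PBS library it was 1.5.

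In DU145 both lists leaned downward with H2O2. Of the epithelial genes 7 rose and 19 fell, with a median of -0.23, and of the mesenchymal genes 6 rose and 16 fell, with a median of -0.35, beside -0.05 over all genes, of which 19.2% rose and 22.8% fell. The mesenchymal median includes genes such as TWIST1, PRRX1 and TCF4, which had 0 to 2 counts per DU145 library. EHF fell by 3.16 ± 0.35, the plakin gene PPL by 1.59 ± 0.15 and the tight junction gene TJP3 by 1.58 ± 0.17, and OVOL1 rose by 1.69 ± 0.51 at levels under 1 CPM. PLAUR, the urokinase receptor, rose by 2.14 ± 0.17. SNAI3 fell by 1.97 ± 0.37, and the smooth muscle genes ACTA2 and TAGLN fell by 1.86 ± 0.43 and 1.72 ± 0.22. In both lists more genes fell than rose. The 4 members called in DU145 all rose, at a share near that of all genes, so no result is drawn from the contrast.

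The genes whose levels moved most like each member were found over the 8 libraries after the mean of each line was taken off, among 10256 genes with a mean of at least 5 CPM in each line. For CD44 these were ARHGEF2 (Pearson r = 0.997), MKLN1 (0.997) and EFTUD1 (0.996), and ARHGEF2 went from 34.4 to 117 CPM in vector 22RV1 cells and from 175 to 562 CPM in vector DU145 cells with H2O2. For ZEB1 they were ZSCAN26 (0.993), ZNF513 (0.989) and TRIP4 (0.988). For SNAI2 they were MAP2K1 (0.989), HOXC9 (0.983) and PLAGL1 (0.973). MAP2K1, which encodes the ERK kinase MEK1, measured 86.2 and 81.1 CPM in vector cells and 42.3 and 49.2 CPM in PAGE4 cells of 22RV1, and 73.9, 99.8, 70.3 and 100.3 CPM in DU145, and so followed SNAI2 both with PAGE4 in 22RV1 and with H2O2 in DU145. For ESRP1 they were NCBP2-AS2 (0.985), SIPA1L1 (0.981) and MARVELD2 (0.975), the last a gene of tricellular tight junctions. The points share libraries, and genes chosen as the most alike of so many will show high values, so these are descriptions.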

How the data were processed

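RNA-seq of 22RV1 and DU145 cells was analysed at 1 library per condition. The authors deposited raw counts per gene, 1 table per cell line, with no normalization; the submitters' processing notes name HISAT2 2.1.0, featureCounts 1.6.0 and GRCh38, and the strand setting is not given in the sources used here. The tables were joined by gene. CPM is TMM-scaled, and levels per kb use the union of GENCODE exons.

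The 8 libraries were fitted with edgeR 4.0.16 (quasi-likelihood test, R 4.3.3, TMM, filterByExpr with a minimum count of 10) with 6 coefficients, a level, a PAGE4 effect and an H2O2 effect in each line, which leave 2 residual degrees of freedom. In this fit 19784 genes were tested, and p-values were adjusted by Benjamini-Hochberg over all of them, with a limit of 0.05. SEs were derived from the log2 change and its F statistic. Single pairs have exact 95% Clopper-Pearson intervals for counting error only. On simulated data for PAGE4 in 22RV1, 199 of 200 genes changed 4-fold were recovered with 13 false calls among 19472 genes. The simulation gave all genes an equal spread and no difference between pools. It therefore cannot give the error rate of the calls reported here, or the power for changes under 4-fold.

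Alternatives were DESeq2 size factors, no filter, DESeq2 1.42.0 (Wald test), each library left out, each line fitted alone, an additive design for the line difference, 5 coefficients for the differences, and total counts; the last was chosen for the fits after seeing the data. The 10 members and all gene lists were chosen with earlier results of these data known. The genes named are the members, up to 4 called genes with the largest change per wider list and contrast, the marker lists, and for each member the 3 genes most like it. FLNA, EGFR, COL6A2 and LUM are reported beside SNAI2 because their values were seen to move with it. Some genes that this rule names are not reported here.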

Additional observations from a re-analysis of the deposited data

Results flagged for a closer look

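Effects that differed between the lines by the test of the difference itself, given as the effect in 22RV1 minus that in DU145 on the log2 scale (edgeR, adjusted over all genes), were found in 7 cases. For PAGE4 these were SNAI2 at -3.63 (adjusted p = 0.000173), ESRP1 at -0.70 (adjusted p = 0.00354) and CDH1 at -0.60 (adjusted p = 0.00688). For H2O2 they were SNAI2 at -2.18 (adjusted p = 0.00331), ESRP1 at -0.74 (adjusted p = 0.000316), VIM at -0.99 (adjusted p = 0.000324) and ZEB1 at 1.32 (adjusted p = 0.0137). The 4 pairs of SNAI2 behind the first value were -4.04 and -3.00 in 22RV1 and 0.43 and -0.05 in DU145. FLNA, EGFR, COL6A2 and LUM were also higher in the vector libraries of 22RV1, and their part in the SNAI2 difference was not tested.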

How the results depend on the processing

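Each effect was fitted within the other factor of its line, over 2 pairs of libraries, and the labels give no replicate numbers for a further block. The members called for the lines were 9 to 10 when 1 library was left out, and 2 to 3 for H2O2 in 22RV1 and 3 to 6 for H2O2 in DU145, while 7 were called in DU145 fitted alone. For PAGE4 in 22RV1 1 member was called with DESeq2 and 1 to 2 with a library left out, for PAGE4 in DU145 0 to 3, for the difference in PAGE4 effect 1 to 4 (0 with 5 coefficients, the H2O2 effect shared), and for the difference in H2O2 effect 2 to 4 (2 with 5 coefficients, the PAGE4 effect shared). Genes called with a library left out were 14342 to 15081 for the lines, 623 to 1442 for PAGE4 in 22RV1, 10 to 396 for PAGE4 in DU145, 3522 to 6217 for H2O2 in 22RV1, 5125 to 9278 for H2O2 in DU145, 186 to 1146 for the difference in PAGE4 effect and 1986 to 4072 for the difference in H2O2 effect. PAGE4 in DU145 gave 217 genes with no filter and 416 with the line fitted alone, beside 64. The difference in PAGE4 effect gave 806 with no filter and 5 with 5 coefficients, beside 493, and the difference in H2O2 effect 1972 with 5 coefficients, beside 3858. The fold change of SNAI1 with PAGE4 in 22RV1 changed sign, with a range of -2.19 to 0.165 with a library left out and 0.157 without vector H2O2. Leaving out a library leaves 1 residual degree of freedom, which lies in the line that keeps all its libraries. The cause of the shifts was not tested for any setting. No fold change of a member reversed among 533 values, but only changes with a low unadjusted p in the main fit were checked. Unchecked changes included some whose pairs had opposite signs. Examples are SNAI2 with H2O2 in 22RV1 (-0.47 in vector and 0.57 in PAGE4 cells) and CDH1 with H2O2 in DU145 (0.14 and -0.15). Total counts moved the median gene to 0.27 for the lines, from 0.07, and to 0.11 for H2O2 in 22RV1, from -0.01. At this depth, changes of CDH2 in DU145 and ZEB2 in 22RV1 were not detectable.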
